A study of Mus musculus with 12 samples.

Results

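The interferon and related receptor chains are 5 genes of the class II cytokine receptor family: Ifnar1, Ifnar2, Ifngr1, Ifngr2 and Il10rb. They are all probe sets that the array's annotation gives to these gene names, a rule that uses no measured value. They are 5 of 12393 genes and 7 of 22690 probe sets measured. The study was made to learn the role of USP18 in the mouse brain. Its arrays hold RNA of whole-brain lysate from 4 genotypes of untreated adult mice kept free of specified pathogens, with 3 arrays each. These were wildtype (WT), mice without USP18 (USP18ko), mice without the type I interferon receptor chain that the series also writes as IFNAR1ko (IFNARko), and mice without both (USP18ko:IFNARko, here the double knockout). The labels give no strain, sex, knockout allele, exact age or scan date. They also do not say whether the 3 replicates were separate animals, so the p-values measure the spread between these samples.

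Type I interferons bind a receptor built of Ifnar1 and Ifnar2, interferon gamma binds one built of Ifngr1 and Ifngr2, and Il10rb is the shared second chain of the receptors for interleukin-10, interleukin-22 and the lambda interferons. The chains carry kinases of the Janus family, which phosphorylate STAT transcription factors once a ligand has bound. USP18 sits on the inner part of Ifnar2 and dampens signalling of the type I receptor, and it also takes the modifier ISG15 off other proteins. In the brain, microglia respond strongly to type I interferon, and mice and people without working USP18 can develop inflammatory disease of the brain.

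Ifnar2, Il10rb, Ifnar1 and Ifngr2 lie side by side on mouse chromosome 16, in that order among the measured genes, and Ifngr1 lies on chromosome 10. The bases just before their start sites are shown here to set the receptor genes beside a typical interferon target. RefSeq promoter entries (build GRCm38.p6) were found for 4 of the 5 members, and the fifth, Il10rb, was not matched. Each window is the 250 bases before the start, on the plus strand, written 5′ to 3′. The windows are chr16:91484965-91485214 for Ifnar1, chr16:91372533-91372782 for Ifnar2, chr10:19591699-19591948 for Ifngr1, chr16:91546809-91547058 for Ifngr2 and chr19:34640639-34640888 for Ifit1, an RNA-binding antiviral effector that serves as the interferon target. Capitals mark matches to 3 motifs searched on both strands: the core of the interferon-stimulated response element (GAAANNGAAA), the gamma-activated site bound by STAT dimers (TTCNNNGAA) and the GC box (GGGCGG).
Ifnar1: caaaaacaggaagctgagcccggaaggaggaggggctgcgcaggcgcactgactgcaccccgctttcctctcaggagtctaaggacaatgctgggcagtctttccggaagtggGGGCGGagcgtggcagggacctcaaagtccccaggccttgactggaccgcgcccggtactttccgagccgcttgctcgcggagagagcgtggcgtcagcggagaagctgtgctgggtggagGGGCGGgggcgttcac
Ifnar2: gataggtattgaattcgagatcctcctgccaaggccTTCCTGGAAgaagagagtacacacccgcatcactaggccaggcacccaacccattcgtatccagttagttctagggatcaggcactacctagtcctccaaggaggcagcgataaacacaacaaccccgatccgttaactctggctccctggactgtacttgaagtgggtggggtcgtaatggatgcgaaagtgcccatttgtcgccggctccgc
Ifngr1: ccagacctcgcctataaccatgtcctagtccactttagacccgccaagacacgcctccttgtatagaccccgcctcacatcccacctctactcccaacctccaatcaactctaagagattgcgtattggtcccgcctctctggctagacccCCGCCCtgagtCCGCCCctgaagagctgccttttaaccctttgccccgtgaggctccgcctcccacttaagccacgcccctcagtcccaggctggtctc
Ifngr2: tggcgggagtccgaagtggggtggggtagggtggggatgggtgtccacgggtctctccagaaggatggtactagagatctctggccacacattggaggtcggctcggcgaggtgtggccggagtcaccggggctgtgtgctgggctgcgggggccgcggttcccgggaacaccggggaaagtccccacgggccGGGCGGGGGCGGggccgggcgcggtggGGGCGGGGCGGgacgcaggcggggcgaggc
Ifit1: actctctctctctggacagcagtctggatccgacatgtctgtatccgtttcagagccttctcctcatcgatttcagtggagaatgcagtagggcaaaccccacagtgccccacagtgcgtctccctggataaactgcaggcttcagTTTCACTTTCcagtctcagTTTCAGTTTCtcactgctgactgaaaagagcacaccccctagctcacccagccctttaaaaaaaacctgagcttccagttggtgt

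The interferon-stimulated core was in 0 of the 4 receptor windows, in 7 of 10 windows of the interferon target genes described further on, and in 2.98% of all 32851 windows of the same length. In the Ifit1 window it stood 104 and 85 bases before the start, both times on the minus strand. The gamma-activated site was in 1 receptor window, that of Ifnar2, as TTCCTGGAA 214 bases before the start, against 7.02% of all windows. GC boxes were in the windows of Ifnar1 (2 matches), Ifngr1 (2) and Ifngr2 (4, of which neighbours overlap or abut), against 32.7% of all windows. Guanine and cytosine made up 65.6% of the Ifnar1 window, 54% of that of Ifnar2, 59.2% of that of Ifngr1 and 74% of that of Ifngr2. A match is a run of letters and not a measured binding site, and a window without one says nothing about sequence outside it.

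The 12 arrays had median log2 signals of 6.98 to 7.07, and the precision of each value below is set by having 3 arrays per genotype. Neuron, astrocyte and oligodendrocyte markers, which define brain tissue, included genes of high signal in every genotype. Their group means reached 13.35, 11.45 and 11.81, though not every listed gene had a high signal. No gene of these 3 lists, nor of 7 endothelial and 3 red cell markers measured, passed the test in any of the 8 comparisons. The WT arrays differed among themselves: the log2 of their summed oligodendrocyte marker signals was 12.33, 13.79 and 11.79. IFNARko replicate 1 stood apart: its beta-actin control signal was 1.48 log2 units higher at the 3′ end than at the 5′ end, against 0.20 to 0.54 in the other 11 arrays. The Xist transcript of the inactive X chromosome was high, at 10.17 to 11.34, in WT replicate 1 and all 3 double knockout arrays, and was 4.98 to 5.69 in the other 8. The Y-linked Eif2s3y was 3.05 to 3.22 in 3 of those Xist-high arrays and 7.16 in double knockout replicate 2, which carried both signals. Usp18 was 4.36, 4.36 and 4.04 in WT, 3.76, 3.58 and 3.55 in USP18ko, 3.55, 3.67 and 3.53 in IFNARko and 3.50, 3.71 and 3.69 in the double knockout. It was 0.63 lower in USP18ko than in WT (limma adjusted p = 0.0137), while the double knockout lay 0.05 above IFNARko, where the gene was already low.

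Ifnar1, the low-affinity chain of the type I interferon receptor and the gene targeted in IFNARko, fell in both genotypes that carry the knockout and passed no test between WT and USP18ko. Its log2 signals were 8.21, 7.44 and 7.85 in WT, and 8.01, 7.76 and 7.97 in USP18ko. They were 6.24, 6.59 and 6.47 in IFNARko, and 6.56, 6.56 and 6.68 in the double knockout. All 6 arrays with the knockout thus lay below all 6 without it, which is true of 0.5% of all genes. The single probe set kept a signal in the knockout arrays, and the labels do not say whether its probes lie inside the deleted part of the gene.

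The 6 arrays with the Ifnar1 knockout differed from the 6 without it by -1.36 log2 units (SE 0.12, 95% interval -1.61 to -1.10, adjusted p = 2.31e-05, 25th smallest p of all genes). On the linear scale this is 61.0% less signal. Ifnar1 was the only 1 of the 5 members that passed in this averaged comparison, in which 1.32% of all genes passed. Against WT, the signal in IFNARko was lower by 1.40 (difference -1.40, SE 0.17, adjusted p = 0.0199), and Ifnar1 was the single gene among all tested that passed there, which is 0.00807% of genes. Its 3 IFNARko arrays lay below the 3 WT arrays, an arrangement found in 6.74% of all genes. That call was lost without WT replicate 3, USP18ko replicates 1 or 3, double knockout replicate 1, or IFNARko replicates 2 or 3, with adjusted p of 0.0537 to 0.185, and kept in the 6 other fits that left out 1 array.

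In the double knockout, Ifnar1 was lower than in WT by 1.23 (difference -1.23, SE 0.17, adjusted p = 0.0394), in a comparison that 0.0161% of genes passed and in which 10.3% of genes had all double knockout arrays below all WT arrays. This call was kept only without WT replicate 2 or IFNARko replicate 1. In the other 10 fits that left out 1 array its adjusted p was 0.0530 to 0.365, with a difference of -1.43 to -1.04 over all 12. Against USP18ko the double knockout was lower by 1.31 (difference -1.31, SE 0.17, adjusted p = 0.000468), and this call was kept in all 12 such fits. Here 1.51% of all genes passed, and 8.09% had all double knockout arrays below all USP18ko arrays.

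Ifnar1 passed no test of Usp18 loss in either background. With Ifnar1 intact the USP18ko arrays differed from WT by 0.08 (95% interval -0.28 to 0.44, adjusted p = 1), and with the Ifnar1 knockout the double knockout differed from IFNARko by 0.17 (95% interval -0.19 to 0.53, adjusted p = 0.706). A p above the threshold does not show equal levels, and the intervals reach up to 0.44 and 0.53. The order of the means was IFNARko 6.43 ± 0.18, double knockout 6.60 ± 0.07, WT 7.83 ± 0.39 and USP18ko 7.91 ± 0.14 (SD, n = 3 each). The arrays of neighbours in this order overlapped except at the step from the double knockout to WT.

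**Figure D1:**
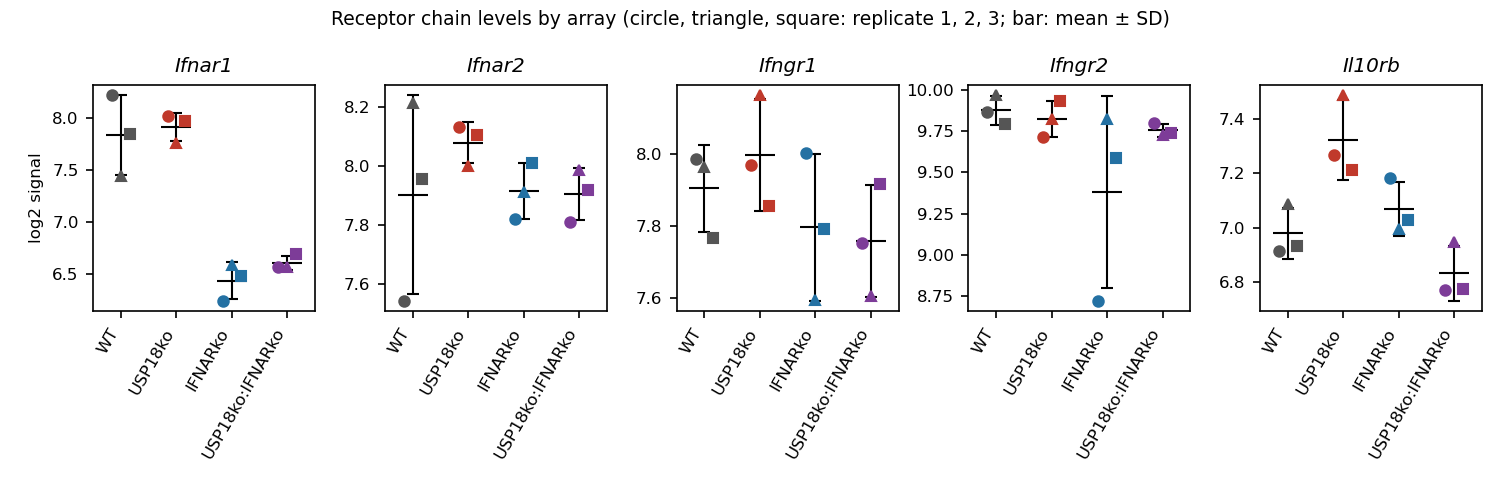
Log2 signal of each receptor gene (y axis, a separate scale in each panel) in the 3 arrays of WT, USP18ko, IFNARko and USP18ko:IFNARko (x axis); circles, triangles and squares are replicates 1, 2 and 3, and bars are the mean ± SD. Ifnar1 separates the 6 arrays with its knockout (6.24 to 6.68) from the other 6 (7.44 to 8.21), Il10rb is highest in USP18ko (7.21 to 7.49), and the low Ifngr2 point (8.72) is IFNARko replicate 1.

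Ifnar2, the high-affinity chain that also holds USP18 at the receptor, passed no test. The probe set that stands for the gene read 7.54, 8.21 and 7.96 in WT and 8.13, 8.001 and 8.10 in USP18ko. It read 7.82, 7.91 and 8.01 in IFNARko and 7.81, 7.99 and 7.92 in the double knockout. The WT arrays spanned the values of all other genotypes. The difference between USP18ko and WT was 0.18 (95% interval -0.14 to 0.49, adjusted p = 1), and that between IFNARko and WT was 0.01 (95% interval -0.30 to 0.32, adjusted p = 0.985). The 3 double knockout arrays lay below the 3 USP18ko arrays, as in 8.09% of genes, with a difference of -0.17 (adjusted p = 1). The group means ran from 7.90 in WT to 8.08 in USP18ko with the double knockout (7.91) and IFNARko (7.92) between, and the arrays of neighbours in this order overlapped.

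The second Ifnar2 probe set gave another picture in IFNARko. Its signals were 6.75, 6.69 and 6.89 in WT, 6.76, 6.81 and 6.80 in USP18ko, 6.49, 6.56 and 6.53 in IFNARko and 6.76, 6.60 and 6.74 in the double knockout. All 3 IFNARko arrays thus lay below the 9 others, an arrangement whose share over all probe sets was not counted. Among genes, 6.74% had all IFNARko arrays below all WT arrays. In the fit of every probe set by itself, IFNARko differed from WT by -0.25 (SE 0.09, adjusted p = 0.484), which did not pass. Over the 12 arrays both Ifnar2 probe sets had a Pearson correlation of 0.07 with each other, given as a description. Both carry the array maker's suffix for probes that can match several transcripts of 1 gene, and RefSeq lists several transcripts of Ifnar2. Their probe positions were not used here.

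Ifngr1, the ligand-binding chain of the interferon gamma receptor, passed no test. It read 7.99, 7.96 and 7.77 in WT, 7.97, 8.16 and 7.86 in USP18ko, 8.002, 7.59 and 7.79 in IFNARko, and 7.75, 7.60 and 7.92 in the double knockout. The groups overlapped in every pair. Among pairs of genotypes the smallest p was that of the double knockout from USP18ko, a difference of -0.24 (95% interval -0.53 to 0.05, adjusted p = 1). USP18ko differed from WT by 0.09 (95% interval -0.20 to 0.38, adjusted p = 1) and IFNARko from WT by -0.11 (95% interval -0.40 to 0.18, adjusted p = 0.763). Group means ran from 7.76 in the double knockout over 7.80 in IFNARko and 7.90 in WT to 7.996 in USP18ko, with SDs of 0.12 to 0.20 (n = 3 each).

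Ifngr2, the second chain of the interferon gamma receptor and the measured gene directly after Ifnar1 on the chromosome, passed no test, and its largest difference rested on 1 array. Its main probe set read 9.87, 9.97 and 9.79 in WT, 9.71, 9.82 and 9.93 in USP18ko, and 9.80, 9.73 and 9.74 in the double knockout. In IFNARko it read 8.72, 9.83 and 9.59, of which the first array lies far below the 11 others. The difference between IFNARko and WT was -0.50 (95% interval -0.95 to -0.04, adjusted p = 0.503), and without IFNARko replicate 1 it was -0.17 (adjusted p = 0.588). That array is the one with the high 3′ to 5′ ratio of beta-actin, and over the 12 arrays Ifngr2 had a Pearson correlation of -0.91 with that ratio, where all points share the array's RNA. The part of RNA quality in this value was not tested.

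The second Ifngr2 probe set pointed the other way in the same array. It read 6.84 in IFNARko replicate 1, the highest of the 12 arrays, and 6.28 and 6.39 in the other 2 IFNARko arrays. Its range was 6.37 to 6.61 in WT, 6.35 to 6.54 in USP18ko and 6.33 to 6.40 in the double knockout. The correlation between both Ifngr2 probe sets was -0.73 by Pearson and -0.37 by Spearman rank, so the Pearson value leans on that array. By this probe set IFNARko differed from WT by 0.01 (95% interval -0.29 to 0.31, adjusted p = 0.992). Group means of the main probe set, in the order IFNARko 9.38 ± 0.58, double knockout 9.75 ± 0.04, USP18ko 9.82 ± 0.11 and WT 9.88 ± 0.09 (SD, n = 3 each), came from arrays that overlapped between neighbours.

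**Figure D2:**
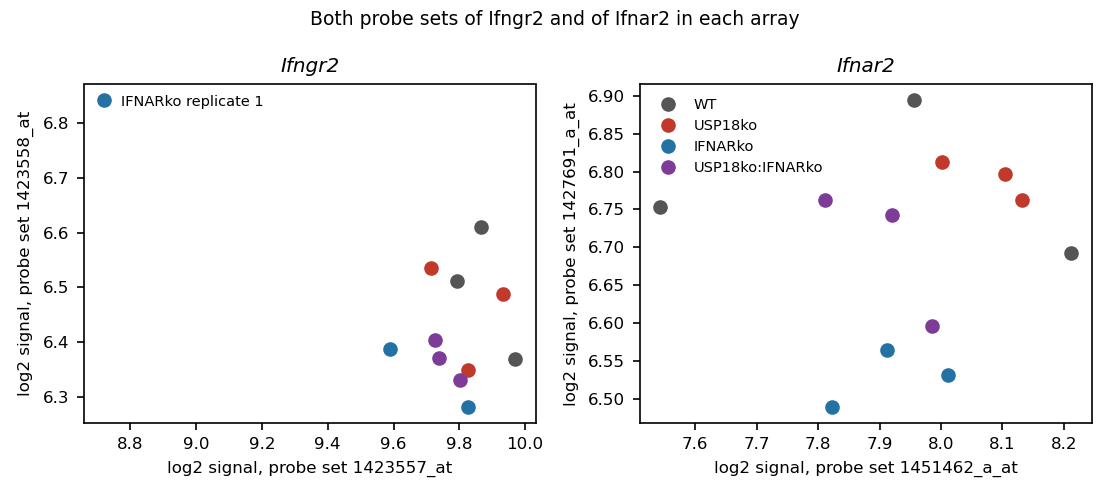
Log2 signal of the probe set that stands for each gene (x axis) against the second probe set of the same gene (y axis), 1 point per array coloured by genotype, for Ifngr2 (left) and Ifnar2 (right). On the left IFNARko replicate 1 is lowest by 1 probe set (8.72) and highest by the other (6.84); on the right the 3 IFNARko arrays lie lowest on the y axis (6.49 to 6.56) but among the others on the x axis.

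Il10rb, the shared chain of the interleukin-10 family receptors and the measured gene directly before Ifnar1, was highest in USP18ko and lowest in the double knockout. It read 6.92, 7.09 and 6.93 in WT, and 7.27, 7.49 and 7.21 in USP18ko. It read 7.18, 6.996 and 7.03 in IFNARko, and 6.77, 6.95 and 6.77 in the double knockout. Every USP18ko array lay above every array of the 3 other genotypes, an arrangement whose share over all genes was not counted. Every double knockout array lay below every IFNARko array, as in 11.2% of all genes. The means were 6.83 ± 0.10 in the double knockout, 6.98 ± 0.09 in WT, 7.07 ± 0.10 in IFNARko and 7.32 ± 0.15 in USP18ko (SD, n = 3 each). The arrays of neighbours in this order overlapped except between IFNARko and USP18ko, a pair that was not tested.

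Between the double knockout and USP18ko, Il10rb differed by -0.49 (SE 0.11, 95% interval -0.73 to -0.25, adjusted p = 0.043), which is 28.8% less signal. Same-numbered arrays of these 2 genotypes deviated together from their group means (correlations of 0.16, 0.27 and 0.14), and with the replicate number as a block the Il10rb call was lost (adjusted p = 0.0557). Without the block, Ifnar1 and Il10rb were the 2 of 5 members that passed in this comparison, against the 1.51% of all genes already given. The groups did not overlap for 3 members, these 2 and Ifnar2, against 8.09% of genes. The Il10rb call was close to the threshold: it was kept without WT replicate 1, WT replicate 2 or IFNARko replicate 1 and lost without any 1 of the 9 other arrays, with adjusted p of 0.0619 to 0.253 and differences of -0.55 to -0.41.

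The 3 USP18ko arrays had Xist at 5.03 to 5.69 and Eif2s3y at 7.26 to 8.25, while the 3 double knockout arrays had the high Xist signal, so genotype and Xist cannot be told apart in the 6 arrays. Eif2s3y separates them less, since double knockout replicate 2, at 7.16, is close to USP18ko replicate 1, at 7.26. With the Eif2s3y level as a covariate over all 12 arrays the Il10rb difference was -0.38 (adjusted p = 0.573). Within WT, Il10rb read 6.92 in the Xist-high array and 7.09 and 6.93 in the other 2.

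Without the Ifnar1 knockout, Il10rb was 0.34 higher in USP18ko than in WT (SE 0.11, 95% interval 0.11 to 0.58), but the adjusted p of 0.377 did not pass. In this comparison 0 of 5 members passed by limma, 1 at an unadjusted p under 0.05, against 1.15% of all genes that passed, and 4.07% of genes had all USP18ko arrays above all WT arrays. With the Ifnar1 knockout the sign was the other way: the double knockout lay 0.24 below IFNARko (difference -0.24, 95% interval -0.47 to -0.0020, adjusted p = 0.566). Xist was 4.98 to 5.65 in IFNARko and 10.34 to 11.34 in the double knockout, so here too genotype and Xist cannot be told apart. Under the other settings of the fit this difference was -0.25 to -0.10. In that comparison 0 of 12393 genes passed, which is 0%, with 1022 genes and 1 member at an unadjusted p under 0.05, and 11.2% of genes had all double knockout arrays below all IFNARko arrays. The interaction, which tests whether both changes differ, was -0.58 (SE 0.15, 95% interval -0.91 to -0.25, adjusted p = 0.198) and did not pass, where 0.847% of all genes did. No other member had an interaction at an unadjusted p under 0.05.

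**Figure D3:**
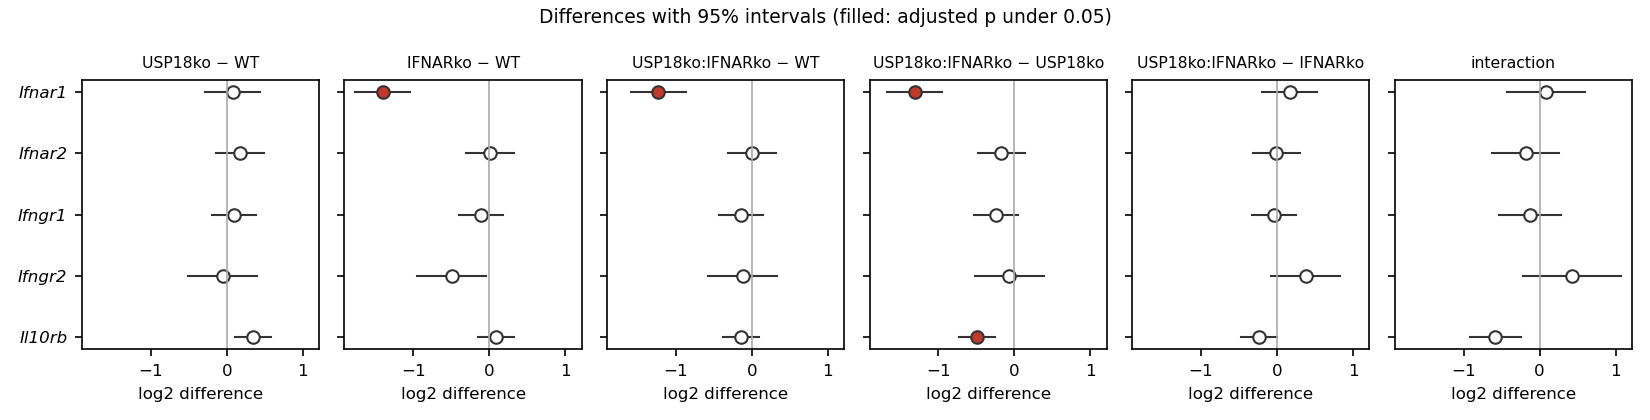
Log2 difference (x axis) of each receptor gene (y axis) in 5 pairwise comparisons and in the interaction, with 95% intervals from the limma fit of all 12 arrays; filled points passed at adjusted p under 0.05. Filled points are Ifnar1 in the 3 comparisons that set its knockout against an intact gene (-1.40, -1.23 and -1.31) and Il10rb between the double knockout and USP18ko (-0.49).

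Averaged over both Usp18 genotypes, all 5 members were lower with the Ifnar1 knockout, with a median of -0.20 against -0.01 over all genes, of which 51.7% were lower. Of the 4 members that were not targeted, none passed: Il10rb differed by -0.20 (adjusted p = 0.383), Ifngr2 by -0.28 (adjusted p = 0.581), Ifngr1 by -0.17 (adjusted p = 0.598) and Ifnar2 by -0.08 (adjusted p = 0.835). For Ifngr2, leaving out each array in turn gave -0.39 to -0.12, and its second probe set differed by -0.04. Averaged over both Ifnar1 genotypes, all 5 were higher with Usp18 loss, by 0.03 for Ifngr1 to 0.16 for Ifngr2, where 55.2% of all genes were lower. With each array left out in turn Ifngr2 ranged from -0.0029 to 0.27, and its second probe set differed by -0.09. In that comparison 0 members passed by limma and 0 had an unadjusted p under 0.05, while 0.678% of all genes passed. The spread of a gene's 4 group means placed Ifnar1 at percentile 99.1 of all genes, Ifngr2 at 91, Il10rb at 90.7, Ifngr1 at 53.8 and Ifnar2 at 33.8. Il10rb combined this with a small spread between replicates, an SD of 0.11 at percentile 16.2, whereas the SD of Ifngr2 was 0.30, at percentile 89.5.

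Besides Ifnar1 itself, no gene among its nearest measured neighbours passed in the averaged Ifnar1 comparison. Of the 5 on each side, which include Ifnar2, Il10rb and Ifngr2, 8 of 10 were lower, with a median of -0.05, and a median of -0.04 over the 7 that are not members. Among the 10 on each side, 0 passed in that comparison by limma (smallest adjusted p = 0.291, for Paxbp1), 10 of 20 were lower, and the median difference was 0.01. Tmem50b, the next after Ifngr2, differed by -0.05 (adjusted p = 0.823). Among 20 on each side 2 passed. Cbr3, a carbonyl reductase and the 19th measured gene after Ifnar1, read 7.75, 7.64 and 8.12 in WT and 8.05, 7.92 and 7.80 in USP18ko. It read 7.54, 7.01 and 7.11 in IFNARko and 7.18, 7.29 and 7.09 in the double knockout, so the 6 knockout arrays lay below the 6 others, with a difference of -0.68 (SE 0.11, adjusted p = 0.00587). Kcne2, a potassium channel subunit that is abundant in choroid plexus and the 12th after Ifnar1, was 0.71 higher (SE 0.14, adjusted p = 0.022). Its signal was lowest in USP18ko, at 5.04 to 5.36, against 5.73 to 6.56 in the 9 other arrays. Paralogs such as Cbr1 and Cbr3 can share probes, and which probes were used was not checked.

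**Figure D4:**
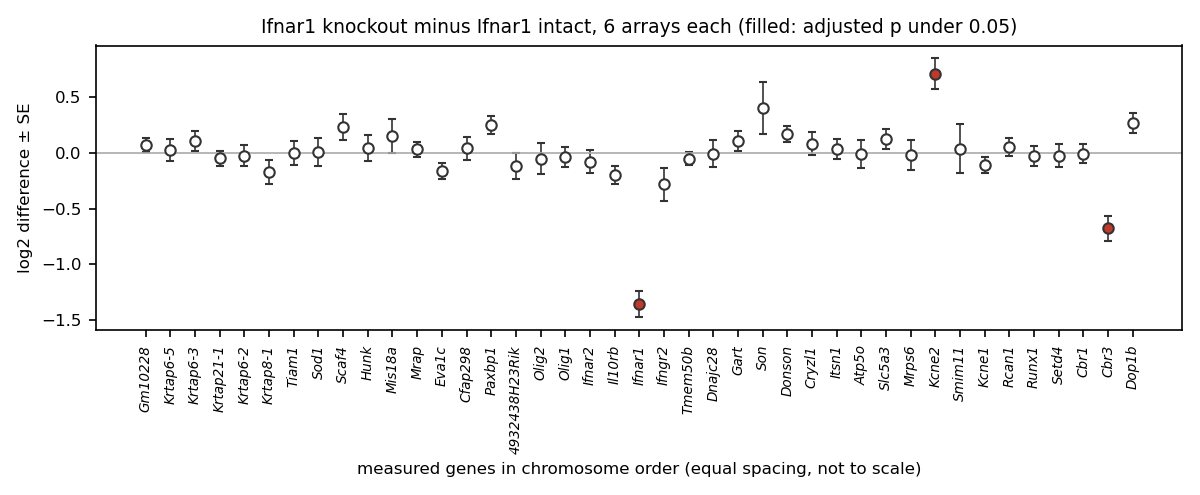
Log2 difference ± SE between the 6 arrays with the Ifnar1 knockout and the 6 without it (y axis) for Ifnar1 and the 20 measured genes on each side in chromosome order (x axis, equally spaced and not to scale); filled points passed at adjusted p under 0.05. Ifnar1 (-1.36) is the only filled point among the nearest 10 genes on each side, with Kcne2 (0.71) and Cbr3 (-0.68) farther along.

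The ligands of these receptors showed no change that passed. Of 24 interferon and interleukin-10 family genes listed, 13 were measured, and 0 passed in any of the 8 comparisons by limma. Group means ran from 2.83 to 5.60, where the lowest value of any probe set was 2.36. Without detection calls these values do not show that ligand levels were equal. The smallest p in the averaged Ifnar1 comparison belonged to Ifna1 (difference -0.18, adjusted p = 0.653) and Ifna5 (0.09, adjusted p = 0.768), both type I interferons whose near-identical family members can share probes. Interferon beta, Ifnb1, read 4.68, 4.46 and 4.64 in WT and 4.91, 4.50 and 4.70 in USP18ko, which overlap. The gamma ligand Ifng read 3.18 to 3.39 in WT and 3.26 to 3.41 in USP18ko, and Il10 2.99 to 3.27 and 3.05 to 3.25.

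Among other cytokine receptors, changes were few. Of 7 other class II receptors listed only Il10ra and F3 were measured, and neither passed in any comparison. Il10ra, the ligand-binding partner of Il10rb in the interleukin-10 receptor, read 3.99, 4.03 and 4.0 in WT, 4.57, 4.06 and 4.39 in USP18ko, 4.04, 3.93 and 3.86 in IFNARko, and 3.80, 3.99 and 3.78 in the double knockout. Like Il10rb it had its highest signals in USP18ko and all of those lay above every double knockout array, but its difference between these groups, -0.49, had an adjusted p of 0.111. F3, tissue factor of blood clotting, differed by 0.24 with the Ifnar1 knockout (adjusted p = 0.686). Of 15 class I receptor genes measured, 2 fell from USP18ko to the double knockout and 0 rose, with a list median of -0.09 against 0.0042 over all genes. They were Osmr, a chain of the oncostatin M receptor (-1.0, SE 0.22, adjusted p = 0.0372), and Csf3r, the receptor for granulocyte colony-stimulating factor (-0.40, SE 0.09, adjusted p = 0.0372). In that comparison 1.51% of all genes passed, and genotype and Xist cannot be told apart. Both calls were not examined under the other settings of the fit. Csf3r was also lower with the Ifnar1 knockout averaged over both Usp18 genotypes (-0.31, SE 0.06, adjusted p = 0.0253).

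Below the receptors, 1 of 6 measured kinase and transcription factor genes changed. Irf9, a DNA-binding factor of the type I interferon response, read 6.64, 6.55 and 6.59 in WT, 7.31, 7.37 and 7.74 in USP18ko, 6.56, 6.31 and 6.36 in IFNARko, and 6.24, 6.24 and 6.19 in the double knockout. It rose by 0.88 in USP18ko against WT (SE 0.12, adjusted p = 0.001) and was lower by 1.26 in the double knockout than in USP18ko (difference -1.26, SE 0.12, adjusted p = 3.1e-05). Jak1 and Tyk2, the kinases of the type I receptor, passed no test, with differences of 0.08 and 0.01 between USP18ko and WT (adjusted p = 1 for each). Of 9 inhibitors measured, Usp18 was the only one called, in USP18ko against WT. Socs1, an inhibitor of Janus kinases, differed by -0.39 with the Ifnar1 knockout (adjusted p = 0.101). Of 4 genes of receptor turnover measured 0 passed in any comparison by limma, and those with the smallest p in the averaged Ifnar1 comparison were Fbxw11 (0.07, adjusted p = 0.813) and Btrc (0.06, adjusted p = 0.832), both subunits of ubiquitin ligases that act on Ifnar1.

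Most measured target genes of the receptors changed. Of 11 interferon target genes measured, 9 rose in USP18ko against WT and 10 fell from USP18ko to the double knockout, with list medians of 3.65 and -3.99. In the interaction 9 were lower, and 8 passed in each averaged comparison, lower with the Ifnar1 knockout and higher with Usp18 loss. Ifit1, whose promoter window holds the interferon-stimulated cores, read 3.52 to 3.90 in WT and 8.36 to 8.84 in USP18ko, a difference of 4.87 (SE 0.20, adjusted p = 1.4e-08). In IFNARko it read 3.11 to 3.82 and in the double knockout 3.15 to 3.66. Ifit3, a partner of Ifit1, rose by 4.19 (SE 0.13, adjusted p = 1.63e-09), and Cxcl10, a chemokine for T cells, by 4.997 (SE 0.19, adjusted p = 8.13e-09). Irf7, a transcription factor for type I interferon genes, had an increase of 3.40 (SE 0.12, adjusted p = 4.71e-09). Beside these, the 5 receptor chains had a median of 0.09 and a range of -0.05 to 0.34. The comparisons with USP18ko share its 3 arrays, so these counts are not independent of each other. Target levels were not uniform within IFNARko. In its replicate 1 the targets Gbp2 and Igtp read 6.97 and 7.51. In replicates 2 and 3 they read 4.47 and 4.24 (Gbp2) and 5.65 and 5.48 (Igtp).

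Markers of immune cells changed in the same 2 comparisons in which Il10rb differed most from zero among pairs of genotypes. Of 9 measured microglia markers, 4 were higher in USP18ko than in WT and 5 lower in the double knockout than in USP18ko. Aif1, a calcium-binding protein of microglia, rose by 1.93 (SE 0.29, adjusted p = 0.00205) and C1qa, a complement component, by 1.79 (SE 0.36, adjusted p = 0.0232). The other 2 were Laptm5, a lysosomal membrane protein (1.25, adjusted p = 0.00673), and Itgam, an integrin of myeloid cells (0.80, adjusted p = 0.00909). The remaining markers did not pass in USP18ko against WT. C1qb (1.55, adjusted p = 0.0702), Csf1r (0.89, adjusted p = 0.0976), Tmem119 (0.41) and Cx3cr1 (0.35) were higher, while P2ry12 was lower (-0.35). From USP18ko to the double knockout C1qb also fell (-1.82, adjusted p = 0.0175), while P2ry12 differed by 0.21 without passing. The log2 of the summed signals of the 9 markers was 10.41 to 11.46 in WT, 11.72 to 12.48 in USP18ko, 10.83 to 11.005 in IFNARko and 10.82 to 10.89 in the double knockout. The lowest value of any probe set was 2.36, and without detection calls a signal above it does not by itself show expression. Of 8 lymphocyte markers 1 rose, Ptprc (2.12, adjusted p = 0.000223), which all white blood cells and microglia carry, and of 7 monocyte and neutrophil markers 1 rose, Plac8 (3.35, adjusted p = 3.78e-05). The other members of both lists did not pass. The list median was 0.01 for lymphocyte markers, among which Cd3e differed by -0.0048 and Cd8a by -0.12, while S100a8 (1.90, adjusted p = 0.112) and S100a9 (1.63, adjusted p = 0.0894) of the other list were higher without passing and Mpo differed by 0.0049. Ptprc and Plac8 were lower again in the double knockout than in USP18ko (-2.46, adjusted p = 4.35e-05, and -3.81, adjusted p = 8.92e-06). The log2 of the summed lymphocyte signals was 8.14 to 8.28 in WT, 8.67 to 8.87 in USP18ko, 8.06 to 8.51 in IFNARko and 8.04 to 8.11 in the double knockout. That sum rose from WT to USP18ko through Ptprc, whose mean went from 5.35 to 7.46. For monocyte and neutrophil markers it was 7.13 to 7.30 in WT, 9.09 to 9.51 in USP18ko, 6.97 to 7.75 in IFNARko and 7.06 to 8.02 in the double knockout, and Plac8 carried most of the rise from WT to USP18ko, with a mean of 5.18 in WT and 8.54 in USP18ko. The part of these cells in the Il10rb values was not tested, and in bulk tissue more cells of a type and more RNA per cell cannot be told apart.

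The genes whose pattern over the 12 arrays was most like each member were taken by Pearson correlation, as a description in which all points share the arrays. For Il10rb they were Syngr2, a synaptogyrin (0.96), Timp1, an inhibitor of metalloproteinases (0.94), and P2ry6, a nucleotide receptor (0.93), and leaving out IFNARko replicate 1 gave 0.97, 0.94 and 0.96. For Ifnar1 they were H2-Bl (0.90), Cblc (0.90) and Tor4a (0.88). Those for Ifnar2 were Rhoc (0.96), Rras (0.95) and Gpx1 (0.93), and those for Ifngr1 were Tent5c (0.90), Scgb3a1 (0.85) and Dusp16 (0.84). For Ifngr2 they were Trabd (0.99), Ppp5c (0.98) and Npdc1 (0.98), but without IFNARko replicate 1 they were 0.88, 0.80 and 0.76, so the first values rest on that array.

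Correlations between the members were set partly by 1 array. Over the 12 arrays the highest was 0.59, for Ifngr1 with Il10rb, and the lowest -0.17, for Ifngr1 with Ifngr2, which form 1 receptor. Without IFNARko replicate 1 this last pair had 0.26, and the highest was 0.64, for Ifnar1 with Ifngr1. Ifnar1 and Ifnar2, which form the other, had a correlation of 0.09 over all arrays, of -0.0012 without that array, and of -0.65 once each genotype's mean was taken out. These 10 values are descriptions of 12 arrays that fall into 4 genotypes.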

How the data were processed

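The authors deposited 1 log2 signal per probe set and array, made with the R package affy, per the submitters' processing notes. Version and settings are not given in the sources read here, and base 2 was inferred from values of 2.36 to 13.81. Each gene was represented by its annotated probe set of highest mean over the 12 arrays, and probe sets with several genes (691) or not listed in the annotation (1555) were left out. Genes were tested with limma 3.58.1 in R 4.3.3, in 1 fit of 4 genotype means with 8 residual degrees of freedom and Benjamini-Hochberg adjustment over 12393 genes. A gene passed at an adjusted p under 0.05. The labels do not say whether replicate numbers pair the arrays. By deviations from the group means, all 3 correlations of same-numbered arrays were over 0.1 between USP18ko and the double knockout and in no other pair of genotypes. This does not settle whether they were paired, and the fit used no pairing. The code was checked on simulated data.

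The members and lists were chosen with earlier results of these data known. Named are all members in every array and probe set, Usp18, up to 4 passing genes per list and comparison by smallest p (for lists with none, 2 in the averaged Ifnar1 comparison), passing neighbours of Ifnar1 among 20 on each side and the 2 nearest on each side, the 3 genes most like each member, and Xist, Eif2s3y and beta-actin. Ifnb1, Ifng, Il10, Jak1, Tyk2, Socs1, Cd3e, Cd8a, S100a8, S100a9, Mpo and Paxbp1 were named after their values were seen. The same holds for C1qb, Csf1r, Tmem119, Cx3cr1, P2ry12, Gbp2 and Igtp. From the cell type lists with no passing gene, no gene was named. Neighbour order is that of RefSeq GRCm38.p6.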

Additional observations from a re-analysis of the deposited data

Results flagged for a closer look

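The differences of Il10rb with Usp18 loss had opposite signs with Ifnar1 intact and with its knockout, and neither passed. With Ifnar1 intact every USP18ko array lay above every WT array (difference 0.34, limma adjusted p = 0.377), as in 4.07% of all genes. With the Ifnar1 knockout every double knockout array lay below every IFNARko array (difference -0.24, limma adjusted p = 0.566), as in 11.2% of all genes. The double knockout and IFNARko arrays also differed in Xist. The interaction was -0.58 with an adjusted p of 0.198 by limma over all genes, so the difference between both changes did not pass the test. It was -0.64 to -0.50 when each array was left out in turn and -0.40 with Eif2s3y as a covariate (adjusted p = 0.999).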

How the results depend on the processing

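With the Ifnar1 knockout averaged over both Usp18 genotypes, Ifnar1 kept its direction and its call under all 21 alternatives (difference -1.45 to -1.26), as it did between the double knockout and USP18ko under all 22. The 2 calls against WT, and the call of Il10rb, sat nearer the threshold. Over all genotypes, same-numbered arrays had correlations of -0.15 to 0.27, with 6 of 18 over 0.1. The main fit used no pairing, and a replicate block over all 12 arrays was fitted only as an alternative. With a replicate block Ifnar1 was -1.40 in IFNARko (adjusted p = 0.0732) and -1.23 in the double knockout (adjusted p = 0.119) against WT, and 0, 0 and 1 receptor genes were called for these comparisons and for the double knockout against USP18ko. With only the groups compared in the fit, which holds fewer samples and gives no value for the interaction and the averaged comparisons, the first 2 were -1.40 (adjusted p = 0.258) and -1.23 (adjusted p = 0.511), with 0 receptor genes called in each. In the double knockout against WT the Ifnar1 call was also lost with each probe set by itself (-1.23, adjusted p = 0.129, in a test of more features), with genes above the 40th percentile of signal (-1.23, adjusted p = 0.0639) and with quantile normalization (-1.24, adjusted p = 0.0669), leaving 0 receptor genes called, and the cause was not tested for the last 2. Between the double knockout and USP18ko only 1 receptor gene, Ifnar1, was called with each probe set by itself (Il10rb adjusted p = 0.0569), that filter (0.113), median centring (0.0661), trended and robust variance (0.0564), the block (0.0557) or Eif2s3y as a covariate (0.573), and the cause was not tested.

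Leaving out each array in turn gave 0 to 1 receptor gene called for either comparison with WT and 1 to 2 between the double knockout and USP18ko, with Ifnar1 at -1.60 to -1.21, -1.43 to -1.04 and -1.39 to -1.26. Some differences that never passed changed sign. Left-out arrays gave ranges of -0.12 to 0.27 (Ifnar1), -0.0049 to 0.33 (Ifnar2) and -0.11 to 0.0028 (Ifngr2) in USP18ko against WT, of -0.17 to 0.17 and -0.18 to 0.16 for Ifnar2 when WT was compared with IFNARko and with the double knockout, and of -0.055 to 0.039 (Ifnar2) and -0.14 to 0.066 (Ifngr1) in the double knockout against IFNARko. They were -0.10 to 0.29 for Ifnar1 in the interaction, and -0.0070 to 0.16 (Ifnar2), -0.024 to 0.079 (Ifngr1) and -0.0029 to 0.27 (Ifngr2) in the averaged Usp18 comparison. With the mean of its probe sets, Ifnar2 was -0.12 in IFNARko and -0.039 in the double knockout against WT, and 0.081 between them. Median centring gave -0.0026 and -0.025 for the first 2, quantile normalization -0.024 for the second. Array weights, whose estimate stopped before its tolerance was met, gave -0.083 for Ifnar2 in the double knockout against WT, 0.013 for Ifngr1 against IFNARko and -0.089 for the Ifnar1 interaction. With Eif2s3y as a covariate Ifnar2 was -0.13 for IFNARko less WT, 0.062 and 0.28 in the double knockout against USP18ko and IFNARko, and 0.19 in the interaction, while Ifnar1 was -0.17 against IFNARko and -0.35 in the interaction, and Ifngr1 -0.011 in the averaged Usp18 comparison.

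Counts of all genes called moved by over 1.5 times with the setting: 28 to 221 (143 as reported) in USP18ko against WT, 0 to 4 (1) in IFNARko against WT, 0 to 2 (2) in the double knockout against WT, 37 to 500 (187) against USP18ko, 0 to 814 (0) against IFNARko, with the most under array weights, 20 to 159 (105) in the interaction, 26 to 321 (164) in the averaged Ifnar1 and 14 to 131 (84) in the averaged Usp18 comparison. Signal over background was not available per probe set, so a low signal has no detection call.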
